A study of Mus musculus with 4 samples.

Results

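Iqcf1, Iqcf3, Iqcf4 and Iqcf5 are 4 neighbouring genes of mouse chromosome 9 that code for small proteins with IQ motifs, and they were followed here in haploid male germ cells with and without the transcription factor SOX30. The 4 genes were taken by symbol from tables of 22552 symbols, and all 4 were found, each on 1 entry. They were picked because Iqcf1 was listed at 0 in the knockout, so the comparison of knockout with wild type had already been used to choose them. For these 4 genes that comparison is given below as values without a test. RNA had been sequenced from cells stained with Hoechst dye and sorted as haploid from testes of male mice 23 days old, labelled as round spermatids. There were 2 libraries from Sox30 knockout mice (KO libraries 1 and 2) and 2 from wild-type mice (WT libraries 1 and 2). The background strain is labelled DBA/C58/ICR and DBA/C60/ICR for KO libraries 1 and 2 and DBA/C57/ICR and DBA/C59/ICR for WT libraries 1 and 2. The number in this label goes up by 1 from sample to sample and may be a slip of data entry, so no strain difference is read from it. The sources used here do not say which part of Sox30 was removed, or whether both libraries of one genotype are from different animals, so that p-values measure the spread between libraries, which may be technical.

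An IQ motif is a short helix that binds calmodulin, the calcium sensor protein, often when calcium is low. Sperm depend on calcium signals for motility and for the acrosome reaction, the release of the enzyme-filled cap that lets a sperm reach the egg. Mouse IQCF1 is a calmodulin-binding protein of the acrosome, and male mice without it have been described as having sperm of lower motility that undergo the acrosome reaction less often. SOX30 is a testis transcription factor of the SOX family, whose members bind short sites with the core ACAAT. CREM, another regulator of spermatid genes, binds the cyclic AMP response element (CRE), TGACGTCA.

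The promoters of the 4 genes carried a CRE-like site close to the annotated start, and the stretches around it are shown because this is the sequence feature the genes shared. All 4 genes were in the RefSeq promoter table (build GRCm38.p6, windows from 250 bases before the start to 50 after it), with 5 distinct starts, since Iqcf3 had a pair of them. Each line below gives 84 bases, 5′ to 3′ on the strand of the gene, lined up on the site in capitals. Iqcf6, the next gene on the chromosome, is set beside them with TGACG, the first bases of the CRE, in capitals.
Iqcf1 (+): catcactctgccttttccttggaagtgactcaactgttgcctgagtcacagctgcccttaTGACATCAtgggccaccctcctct
Iqcf3, start 1 (-): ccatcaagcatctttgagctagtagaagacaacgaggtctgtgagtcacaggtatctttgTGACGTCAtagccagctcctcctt
Iqcf3, start 2 (-): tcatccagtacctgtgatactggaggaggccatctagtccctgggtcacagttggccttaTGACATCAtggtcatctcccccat
Iqcf4 (-): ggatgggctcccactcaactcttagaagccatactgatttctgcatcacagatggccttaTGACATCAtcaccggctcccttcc
Iqcf5 (+): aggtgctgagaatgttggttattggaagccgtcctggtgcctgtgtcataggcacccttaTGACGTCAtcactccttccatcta
Iqcf6 (+): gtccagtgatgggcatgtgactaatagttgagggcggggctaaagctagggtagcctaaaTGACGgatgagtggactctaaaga
In GRCm38.p6 the stretches lie at chr9:106499876-106499959 for Iqcf1, chr9:106561654-106561737 for start 1 of Iqcf3 and chr9:106544712-106544795 for start 2 of Iqcf3. Those of Iqcf4, Iqcf5 and Iqcf6 lie at chr9:106571000-106571083, chr9:106514509-106514592 and chr9:106626523-106626606.

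The full CRE, TGACGTCA, stood at start 1 of Iqcf3 and at Iqcf5. The other 3 starts held the same letters except for the fifth base, which no longer makes a CRE but fits TGACNTCA, a pattern added after the sequences had been seen. Counted from the annotated start, the first base of the site lay at -31 in Iqcf1, at -51 and -49 for starts 1 and 2 of Iqcf3, at -56 in Iqcf4 and at -4 in Iqcf5, where the site runs over the start itself. The 5 stretches were lined up on TGACNTCA, so their identity at 7 of the 8 positions of the site was set by that choice. They were identical at 13 of 60 positions before the site and at 2 of 16 after it. Pairs of stretches matched at 47.6% to 63.1% of their bases, the site included.

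Searched on both strands of the 300-base windows, TGACNTCA (which takes in TGACGTCA) was found in the promoters of 2705 of the 27016 genes of the table and of 10.7% of the 7323 tested genes that had a promoter there. With the first base between -56 and -4, the range seen in the 4 genes, it was found in 3.28% of the 27016 genes and 4.67% of the tested ones. Anywhere in the window, TGACGTCA was in 2.03% of the 27016 genes and 4.01% of the tested ones. Of the 16 neighbouring genes described below that had a promoter in the table, Iqcf6 included, 0 held TGACNTCA. The SOX core ACAAT was in none of the 5 windows and not in that of Iqcf6. It was in 34.4% of the 27016 genes, 26.8% of the tested genes and 12.5% of the 16 neighbours. Most promoters thus lacked it, and nothing is read from its absence in so few windows. The longer AACAAT, which contains it, was in 12.2% of the 27016 genes and in none of these windows. TATAAA was found in Iqcf5 alone of these genes, at -139 to -134, and in 15.7% of the 27016 genes. TGACG, which lies within every TGACGTCA, was found outside a full CRE in the window of Iqcf6. It was in 23.1% of the 27016 genes, 36.1% of the tested genes and 31.2% of the 16 neighbours, Iqcf6 included. Such a common match does not set Iqcf6 apart from other genes. Such matches are descriptions of the letters, not sites shown to be bound.

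**Figure D1:**
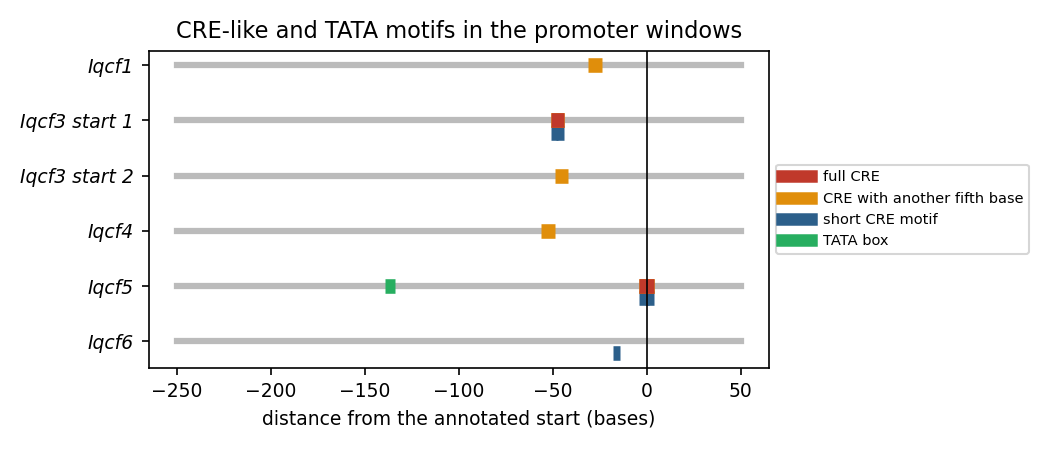
Positions of CRE-like and TATA motifs in the promoter windows, one row per annotated start, with the distance from that start in bases on the x axis. The CRE-like site begins between -56 and -4 in all 5 rows of the 4 genes, and the row of Iqcf6 holds only TGACG, drawn as the short CRE motif.

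In wild-type cells the 4 genes were well expressed. Levels were given by the authors as FPKM, fragment counts scaled to the length of the transcript and to the mapped fragments of the library, which allows genes to be compared within a library. Iqcf5 stood highest, followed by Iqcf1, Iqcf3 and Iqcf4, in the same order in both WT libraries. Neighbours in this order overlapped in their WT range for Iqcf5 and Iqcf1 and for Iqcf1 and Iqcf3, whereas Iqcf4 lay below Iqcf3 in both libraries, by 2.26 and 2.25 times. Among the 22552 symbols Iqcf5 ranked 411 and 487 in WT libraries 1 and 2, and Iqcf4 ranked 1279 and 1464. Levels were higher in WT library 1 than in WT library 2 for all 4 genes, by 1.21 to 1.56 times, where the median of the 1685 tested genes with a WT mean of at least 50 FPKM was 1.15.

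Iqcf1 was listed at 0 FPKM in both KO libraries, against 222 and 142 FPKM in WT libraries 1 and 2. Iqcf4 was also listed at 0 in both KO libraries, against 75.4 and 62.2 FPKM in the WT libraries. In both genes the genotypes were apart, and no transcript was listed in the knockout. Without read counts a value of 0 has no known detection limit.

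Iqcf3 had 2.46 FPKM in KO library 1 and 0.0624 FPKM in KO library 2, against 170 and 140 FPKM in the WT libraries, so that the KO mean was 0.815% of the WT mean. Iqcf5 had 1.43 and 6.66 FPKM in KO libraries 1 and 2, against 277 and 207 FPKM in the WT libraries, and its KO mean was 1.67% of the WT mean. The remaining signal was uneven between the KO libraries and ran in opposite ways in these genes: Iqcf3 was higher in KO library 1 and Iqcf5 in KO library 2. Iqcf5 made up 36.7% and 99.1% of the summed FPKM of the 4 genes in KO libraries 1 and 2, against 37.2% and 37.6% in WT libraries 1 and 2. That sum was 3.89 and 6.72 FPKM in the KO libraries and 745 and 551 FPKM in the WT libraries. At such low KO levels, and without read counts, the unevenness and the KO shares may rest on few reads. No pattern is read from them.

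**Figure D2:**
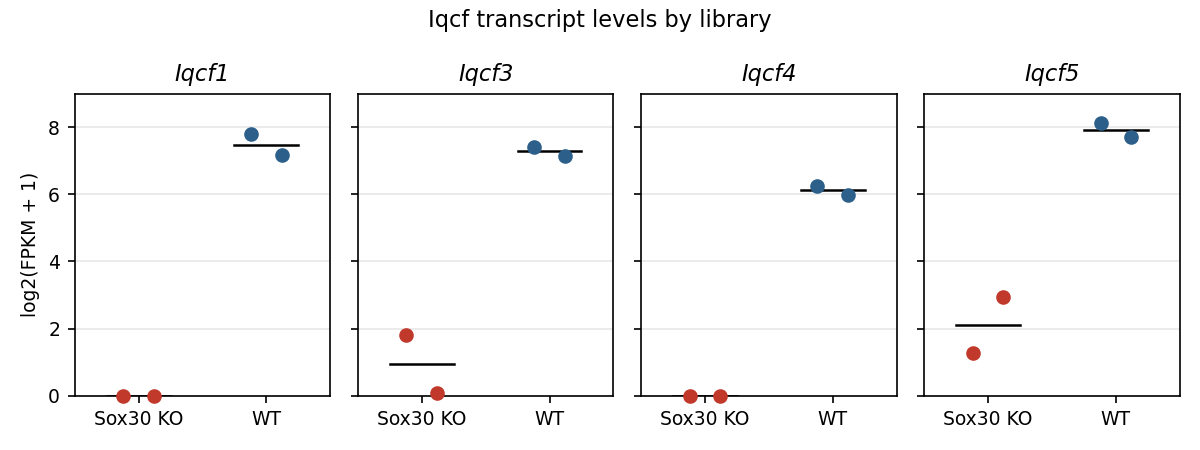
Levels of the 4 Iqcf genes as log2(FPKM + 1) on the y axis, with Sox30 KO left and WT right; points are libraries and horizontal lines are means of 2 libraries. All KO points lie below all WT points, and those of Iqcf1 and Iqcf4 lie at 0.

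On the log2(FPKM + 1) scale the KO minus WT difference was -7.48 for Iqcf1, -6.34 for Iqcf3, -6.12 for Iqcf4 and -5.80 for Iqcf5. For the genes listed at 0 this size is set by the WT level and the added 1, so it does not rank how much transcript was lost. All 4 genes had both KO values below both WT values, as did 38.6% of the 9124 genes tested (those with a mean of at least 1 FPKM over the 4 libraries), where 22.2% had both KO values above both WT values. All 4 had a KO mean under 5% of the WT mean, as did 10.6% of the 1686 tested genes with a WT mean of at least 50 FPKM. Nothing is read from these counts because the genes were chosen on this contrast. Being listed at 0 in both KO libraries held for 3.07% of the tested genes and for 1.42% of those 1686. Among the 280 tested genes listed so, Iqcf1 had rank 6 and Iqcf4 rank 18 by WT mean. Iqcf3 and Iqcf5 are not in that class, since both were above 0 in each KO library.

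The sorted cells differed between genotypes in more than these genes, and the values stand beside the Iqcf results because their part in them was not tested. Sox30 itself, the targeted gene, stood at 1.46 and 3.16 FPKM in the KO libraries and 11.4 and 16.2 FPKM in the WT libraries. The summed level of 7 spermatid markers was 112 and 62.6 FPKM in the KO libraries and 8191 and 5158 FPKM in the WT libraries. In limma all 7 were called lower, where 13.4% of all 9124 tested genes were lower and 1.95% higher. A sum follows its most abundant members, and the markers did not fall equally. Fitted log2 differences were -4.54 for Acrv1, -3.72 for Spaca1 and -1.42 for Izumo1, markers that are also in the acrosome list used below. In that list 14 of the 28 tested genes were called lower and 14 were not called, so the markers do not stand for all spermatid genes. The summed level of 8 spermatocyte markers was 566 and 440 FPKM in the KO libraries and 492 and 472 FPKM in the WT libraries. All 8 were above 0 in every library. Of these 8 genes, 6 had both KO values below both WT values, 1 had them above, and 1 was called lower. Over all tested genes these shares were 38.6%, 22.2% and 13.4%. The marker sums of other cell types were higher in both WT libraries than in either KO library. The 7 spermatogonial markers gave 6.03 and 3.28 FPKM in the KO and 32.1 and 36.1 FPKM in the WT libraries. Of these, Dmrt1, Kit, Stra8, Zbtb16 and Sohlh1 were at 0 in both KO libraries. The 5 Leydig markers gave at most 0.0674 FPKM in the KO libraries and 60.01 and 36.8 FPKM in the WT libraries, with Cyp11a1, Cyp17a1 and Hsd3b1 at 0 in both KO libraries. The 4 blood markers gave 8.18 FPKM and close to 0 in KO libraries 1 and 2 and 242 and 132 FPKM in the WT libraries, with Ptprc at 0 in both KO libraries. The 3 peritubular markers gave 1.34 and 2.23 FPKM in the KO and 8.56 and 7.07 FPKM in the WT libraries, with Myh11 at 0 in both KO libraries. The 5 Sertoli markers found of 6 gave 0.537 and 0.686 FPKM in the KO and 1.15 and 3.67 FPKM in the WT libraries, with Amh and Gata4 at 0 in both KO libraries. In sorted bulk samples, fewer cells expressing a gene and less of its RNA per cell cannot be told apart.

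The genes next to the cluster were examined for a difference reaching further along the chromosome. They were the 10 genes on each side of the outermost Iqcf genes, by RefSeq gene order, that were in the tables; 13 of the 20 passed the level filter and 7 were too low to test. In limma, 1 of the 13 fell and 0 rose at an adjusted p under 0.05, or 7.69% lower against 13.4% of all 9124 tested genes lower and 1.95% higher; at an unadjusted p under 0.05 there were 2 lower and 2 higher. The gene that fell was Iqcf6, the fifth Iqcf gene of the mouse cluster and the nearest on the Iqcf4 side. Iqcf6 was listed at 0 in both KO libraries, against 44.9 and 29.2 FPKM in the WT libraries (limma adjusted p = 0.000816). It passed the level filter only through its WT values.

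None of the other 12 tested neighbours passed. On the Iqcf1 side the nearest gene was Rrp9, a factor of ribosomal RNA processing, at 5.90 and 7.75 FPKM in the KO and 15.0 and 2.79 FPKM in the WT libraries, which overlapped (limma adjusted p = 0.997). Its fitted log2 difference was -0.00467 with an SE of 0.70. The median log2 difference over the 13 genes was 0.25, where that of all tested genes was -0.23. The genes named next were chosen after their values were seen. Vprbp, on the Iqcf4 side, had 0.551 and 0.513 FPKM in the KO and 2.05 and 4.34 FPKM in the WT libraries, with the KO values the lower (limma adjusted p = 0.0701). On the Iqcf1 side the KO values were the higher in Rpl29, at 71.0 and 130 FPKM in the KO and 56.9 and 38.5 FPKM in the WT libraries (limma adjusted p = 0.153). Gpr62 on that side also had the higher values in the KO, at 52.6 and 54.6 FPKM against 33.7 and 28.1 FPKM in the WT libraries (limma adjusted p = 0.137). Genes on the Iqcf4 side with smaller differences were Tex264 and Manf: Tex264 had 55.5 and 39.6 FPKM in the KO and 35.6 and 43.3 FPKM in the WT libraries, and Manf had 83.2 and 84.2 FPKM in the KO and 106 and 93.1 FPKM in the WT libraries. Leaving out single libraries changed the counts of called neighbours, and also those of all tested genes given at the end.

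**Figure D3:**
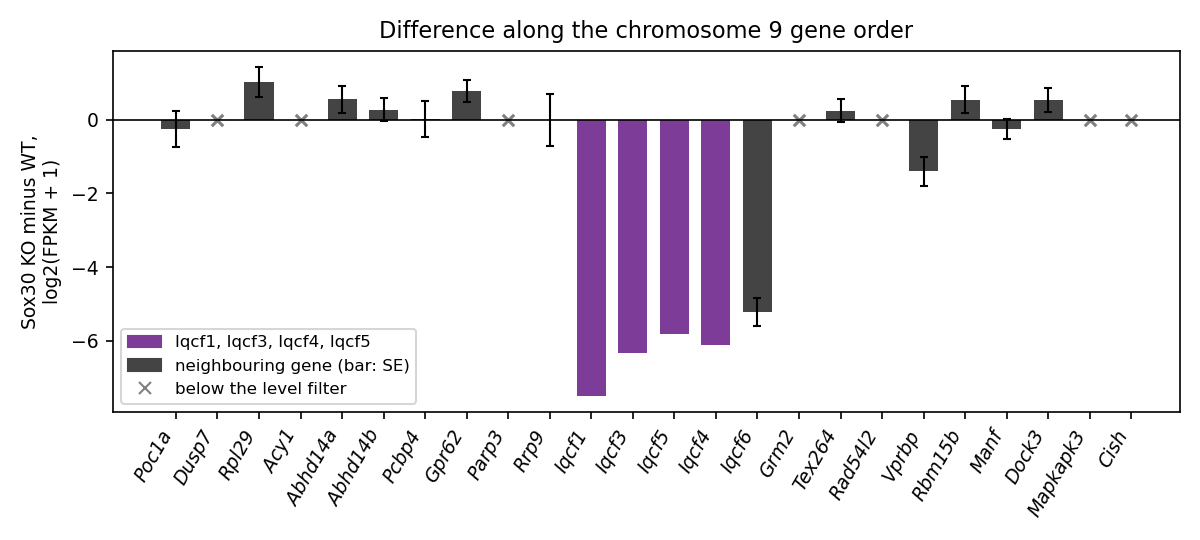
KO minus WT difference on the log2(FPKM + 1) scale along the gene order of chromosome 9, for the 4 Iqcf genes and 10 genes on each side. Error bars are limma standard errors, crosses mark genes too low to test, and the long bars are those of the 4 genes and of Iqcf6.

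The transcripts of the 4 genes had only short stretches in common. In GENCODE M21 the longest identical run between transcripts of any pair of the 4 genes was 20 bases, and the coding sequences matched at 59.5% to 67.4% of aligned bases. Iqcf5 lies within the span of Iqcf3 on the opposite strand, but their exons shared 0 bases. The strand setting of the counting is unknown here.

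Calmodulin is the partner of the IQ motif, and of 6 listed calmodulin and calmodulin-like genes 2 were high enough to test, the calmodulin genes Calm2 and Calm3. Of these 0 fell and 0 rose in limma, with 0 at an unadjusted p under 0.05, and with 13.4% of all tested genes lower and 1.95% higher nothing is read from a count over 2 genes. Calm2 had 205 and 195 FPKM in the KO and 253 and 222 FPKM in the WT libraries (limma adjusted p = 0.568), the KO values being the lower. Calm3 had 760 and 1080 FPKM in the KO and 601 and 501 FPKM in the WT libraries (limma adjusted p = 0.167), the KO values being the higher. The median log2 difference of both genes was 0.24. Without KO library 1 the fitted log2 difference of Calm3 was 0.98, against 0.72 with all libraries. The other 4 listed genes were at or below 0.683 FPKM in every library.

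Among other genes whose proteins carry IQ motifs, 18 of 29 were high enough to test; 5 fell, 1 rose and 12 did not pass. The lower share was 27.8%, against 13.4% of all tested genes lower and 1.95% higher, and the median log2 difference was -1.04. At an unadjusted p under 0.05 in limma there were 10 lower and 1 higher. Iqcf6 counts here too. Of the 5 genes that fell, only Iqub had a KO mean above 1 FPKM. The others passed the level filter only through their WT values, and the lower share counts them. The gene 1700007B14Rik, named Iqcm in RefSeq, was listed at 0 in both KO libraries, against 33.5 and 35.3 FPKM in the WT libraries (limma adjusted p = 0.000653). Iqub, which codes for a protein of the sperm flagellum, had 18.9 and 10.3 FPKM in the KO and 60.3 and 69.7 FPKM in the WT libraries, with a fitted log2 difference of -2.14 ± 0.38 (SE, n = 2 libraries each; limma adjusted p = 0.0157).

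Ppef1, a protein phosphatase with an IQ motif, had 0.932 and 0.0484 FPKM in the KO and 3.20 and 4.21 FPKM in the WT libraries (limma adjusted p = 0.0460), a call lost with a replicate block, quantile normalization, a pseudocount of 0.1, no level filter or either WT library left out, where the limma adjusted p was 0.0638 to 0.409. Nrgn, the neuronal calmodulin-binding protein neurogranin and the fifth gene that fell, had 0.538 and 0 FPKM in the KO and 2.68 and 2.88 FPKM in the WT libraries (limma adjusted p = 0.0339). It was named after its values were seen. Both Ppef1 and Nrgn stood under 5 FPKM in every library. The gene that rose was Iqcc, at 9.02 and 7.89 FPKM in the KO and 1.77 and 2.07 FPKM in the WT libraries, with a fitted log2 difference of 1.69 ± 0.35 (SE; limma adjusted p = 0.0256). The call of Iqcc was lost with a replicate block, without the level filter and without either WT library, where the limma adjusted p was 0.0611 to 0.297.

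An abundant IQ-motif gene did not pass. Spa17, a sperm surface and flagellar protein named here after its values were seen, had 1772 and 2789 FPKM in the KO and 1895 and 1532 FPKM in the WT libraries, which overlapped (limma adjusted p = 0.465). When single libraries were left out, the counts of called IQ-motif genes changed, as did those of all tested genes given at the end.

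Of 31 enzymes regulated by calmodulin, 10 were high enough to test. In limma 3 fell, 0 rose and 7 did not pass, where 13.4% of all tested genes were lower and 1.95% higher. At an unadjusted p under 0.05 there were 4 lower and 1 higher. The median log2 difference was -0.83. Pde1a, a calmodulin-stimulated phosphodiesterase that breaks down cyclic nucleotides, had 8.91 and 4.15 FPKM in the KO and 150 and 123 FPKM in the WT libraries, with a fitted log2 difference of -4.26 ± 0.41 (SE; limma adjusted p = 0.00166). Camk4, a calmodulin-dependent kinase of the spermatid nucleus, had 0 and 0.00890 FPKM in the KO and 2.62 and 2.43 FPKM in the WT libraries (limma adjusted p = 0.0119). Ppp3r1, the widespread regulatory subunit of the phosphatase calcineurin, had 0.0590 and 0 FPKM in the KO and 3.06 and 3.06 FPKM in the WT libraries (limma adjusted p = 0.00917). Camk4 and Ppp3r1 passed the level filter only through their WT values, and with a mean of at least 5 FPKM required 1 enzyme was called lower.

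The calcineurin subunits typical of sperm were far more abundant and did not pass. Ppp3r2 had 285 and 353 FPKM in the KO and 262 and 240 FPKM in the WT libraries (limma adjusted p = 0.442), with the KO values the higher. Ppp3cc, the catalytic subunit, had 168 and 77.2 FPKM in the KO and 180 and 195 FPKM in the WT libraries (limma adjusted p = 0.295), with the KO values the lower. Both were named after their values were seen. The counts of called enzymes changed with single libraries left out, as did those of all tested genes given at the end.

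**Figure D4:**
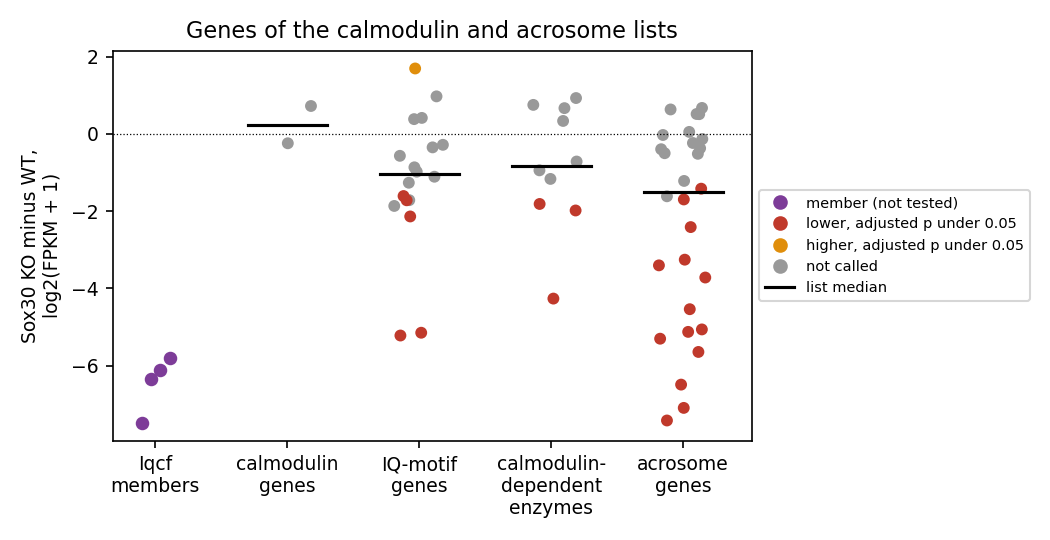
KO minus WT differences on the log2(FPKM + 1) scale for the 4 Iqcf genes and for the tested genes of 4 lists; each point is a gene, coloured by its limma call, and black lines are list medians. The medians are 0.24 for calmodulin genes, -1.04 for IQ-motif genes, -0.83 for calmodulin-dependent enzymes and -1.52 for acrosome genes.

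Acrosome genes are set beside Iqcf1 because its protein is found in that organelle. Of 29 listed genes 28 were tested; 14 fell and 14 did not pass. In limma 0 rose, also at an unadjusted p under 0.05, where 16 were lower. Of all tested genes 13.4% were lower and 1.95% higher. The median log2 difference was -1.52, where that of all tested genes was -0.23. Spaca5 and Izumo2, of the sperm lysozyme-like and Izumo families, were listed at 0 in both KO libraries like Iqcf1, against 94.7 and 83.2 FPKM for Spaca5 and 150 and 122 FPKM for Izumo2 in the WT libraries (limma adjusted p = 0.00048 for each). Lyzl4, another lysozyme-like gene, had 4.40 and 0 FPKM in the KO and 124 and 107 FPKM in the WT libraries, with a fitted log2 difference of -5.64 ± 0.78 (SE; limma adjusted p = 0.00608). Lyzl6 of the same family had 2.93 and 0.260 FPKM in the KO and 422 and 341 FPKM in the WT libraries (limma adjusted p = 0.000914). Some of the acrosome genes that fell, Spaca5 and Izumo2 among them, passed the level filter only through their WT values.

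The spermatid marker sum given above was lower in the same KO libraries, and its part in the counts of the acrosome, IQ-motif and enzyme lists was not tested. Not every abundant acrosome gene was lower. Spink2, an inhibitor of acrosomal proteases named after its values were seen, had 3625 and 5122 FPKM in the KO and 3366 and 2712 FPKM in the WT libraries (limma adjusted p = 0.299), and the KO values were the higher. Counts of called acrosome genes also changed with single libraries left out, along with those of all tested genes given at the end.

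The genes with the most similar levels to each Iqcf gene were found by Euclidean distance of log2(FPKM + 1) over the 4 libraries, as a description that includes the contrast used to choose them. Closest to Iqcf1 were 1700015G11Rik, Fhl5, 1700016P04Rik, AI507597 and 1700042G07Rik, at distances of 0.11 to 0.26. Of these Fhl5, which codes for an activator of CREM, had 0.0598 and 0.0637 FPKM in the KO and 212 and 145 FPKM in the WT libraries. The other 4 were listed at 0 in both KO libraries, which the distance itself selects for.

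Closest to Iqcf4 were 1700020C07Rik, 1700016H13Rik, 4933405O20Rik, Txndc2, a sperm thioredoxin, and Aqp7, a water and glycerol channel, at 0.06 to 0.26. Closest to Iqcf3 were Cdrt4, Cypt3, 1700008A04Rik, Fam166a and Gm11213, at 0.32 to 0.57. Like Iqcf3 all had their remaining signal mainly in KO library 1, a likeness that the distance itself selects for. Iqcf5 was less closely matched, its nearest genes being Cypt7, Bri3, 1700034E13Rik, 1700019D03Rik and 4930404N11Rik at 0.79 to 1.38. The 4 genes were not each other's closest: seen from Iqcf1, Iqcf3 ranked 64, Iqcf4 ranked 69 and Iqcf5 ranked 161 among the tested genes.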

How the data were processed

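The deposited values are FPKM per gene symbol, computed by the authors, with TopHat2 2.0.6, Cufflinks 2.0.2, Cuffdiff and build mm9 named in the submitters' processing notes. Each table had 23021 entries, and the 259 symbols on more than 1 entry were summed. Per the labels' protocols, a NEBNext Ultra RNA kit was used for the libraries. Read counts were not used here, so absolute depth is unknown and no counting intervals are given. No rescaling was done. Genes with a mean of at least 1 FPKM over the 4 libraries were fitted as log2(FPKM + 1) in limma 3.58.1 (R 4.3.3) with genotype as the only term and a trended prior variance, two-sided, adjusted by Benjamini-Hochberg over 9124 genes at 0.05. This scale understates the change of low genes. The fit was tested on simulated data. Alternatives were other pseudocounts, filters and scalings, a replicate block and leaving out each library.

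The Iqcf genes, lists and tests were chosen with earlier results of these data known, and the acrosome list includes genes those results had named. Named genes were the 4 Iqcf genes, Sox30, up to 4 genes of each list and direction that passed (by largest difference, topped up to 2 by level), the nearest and the called neighbours, and the 5 genes closest in level; the text says where others were named after their values were seen. A gene that the rule would also have named is not reported here. Promoters came from RefSeq (GRCm38.p6) and covered 80.3% of tested genes and 80.0% of neighbours, older symbols included. Gene order came from RefSeq and transcripts from GENCODE M21, whose build differs from the authors'.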

Additional observations from a re-analysis of the deposited data

How the results depend on the processing

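With 2 libraries per genotype the calls depend on single libraries. Leaving out 1 library at a time, with the lone library taken to vary like the other genotype, moved the genes called lower from 1221 to between 0 and 3071 and those called higher from 178 to between 0 and 984. The lowest counts came without WT library 2, when 0 genes passed in limma and 1412 had an unadjusted p under 0.05. The same fits gave 0 to 10 lower and 0 to 2 higher IQ-motif genes, 0 to 6 lower and 0 to 2 higher calmodulin-dependent enzymes, 0 to 18 lower and 0 to 2 higher acrosome genes, 0 to 3 lower and 0 to 2 higher neighbouring genes and 0 to 1 higher calmodulin genes. The Iqcf genes were chosen on this contrast, and in each both KO values lay below both WT values. Leaving out a library or changing the pseudocount therefore could not change the sign, and only the sizes are informative. The Iqcf differences in these fits ran from -7.80 to -7.16 for Iqcf1, -7.19 to -5.49 for Iqcf3, -6.26 to -5.98 for Iqcf4 and -6.63 to -4.97 for Iqcf5. With a pseudocount of 0.1 they were -10.79 for Iqcf1, -7.90 for Iqcf3 and -9.42 for Iqcf4, and with a pseudocount of 5 they were -5.19, -4.70, -3.88 and -4.82 for Iqcf1, Iqcf3, Iqcf4 and Iqcf5. The pseudocount of 0.1 left 113 genes higher and 3 IQ-motif genes lower. With no filter on low values 696 genes were lower and 32 higher, with 2 lower and 0 higher IQ-motif genes, 1 lower enzyme and 9 lower acrosome genes. A mean FPKM of at least 5 gave 787 lower genes and 1 lower enzyme, fewer genes being tested. Median-ratio scaling gave 283 higher genes and moved the median log2 difference of all genes from -0.23 to -0.07. Quantile normalization moved it to 0.17 and gave 1012 lower and 608 higher genes, 62.5% lower against 87.3% as reported, with 3 lower and 2 higher IQ-motif genes and 1 higher enzyme. The cause of these changes was not tested.

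The libraries share only a number between genotypes. Deviations from the group means of same-numbered libraries correlated at -0.20 across genes. With only 2 libraries per genotype this value cannot show whether same-numbered libraries were prepared as pairs. The main fit did not treat them as pairs. A replicate block gave 1056 lower and 82 higher genes, with 3 lower and 0 higher IQ-motif genes; a crossed pairing, added after seeing the data, gave 1416 lower and 390 higher genes. Of 173 values of 16 named genes under the alternatives, 34 lost their call: 13 genes without WT library 2, 7 without WT library 1, 9 with no filter on low values (Pde1a, Iqub and Lyzl4 among them), 2 with a pseudocount of 0.1 (Ppef1 and Lyzl4), 2 with the replicate block (Ppef1 and Iqcc) and 1 with quantile normalization (Ppef1). Of the named genes only Rrp9 changed sign, under the alternatives run for named genes, and it was not called in any of them: it was at 0.15 after median-ratio scaling, 0.053 with a pseudocount of 0.1, 0.53 after quantile normalization, 0.17 and 1.03 without KO library 1 and WT library 1, and ranged from -1.04 to 1.03 with 1 library left out.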
